A study of Mus musculus with 19 samples.

Results

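The genes described here are 9 members of the Notch pathway, out of 14459 genes measured by ribosome profiling and RNA-seq in acute hippocampal slices. They were taken by symbol: the ligands Dll1 and Jag1, the receptors Notch1, Notch2 and Notch3, the DNA-binding effector Rbpj, and the target genes Hes5, Hes1 and Hey1. The set was selected on the measured values of Hes5, whose footprints were higher in KO than in WT while its RNA was not. The genotype contrasts of Hes5 are therefore given as a description, without a test. All 9 members had a row in the tables and passed the filter on low counts in each comparison.

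Slices came from male mice aged 28 to 35 days on a C57BL/6 background, either Fmr1 KO or wild-type (WT) littermates. Fmr1 encodes FMRP, an RNA-binding protein found on many neuronal mRNAs, and the labels name no Cre or cell type that would restrict its loss. Each biological replicate pooled 8 to 10 slices of 400 µm from 6 to 8 mice of 1 genotype, with CA3 cut away. Both genotypes were held at 30 °C for 3 to 4 h, received cycloheximide at 100 µg/ml, which holds ribosomes in place, and were not treated further. Cytoplasmic RNA and the mRNA fragments protected by single ribosomes (footprints, RPF) were taken from the same lysate. The protocol describes CA1-enriched hippocampal slices, whereas the source name gives hippocampal-cortical slices. The labels list 19 samples. Of these, 14 libraries have a column in the tables: in each assay n is 3 for KO and 4 for WT. The other 5 samples are not analysed here.

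Estimated counts summed to between 4.97 M and 9.96 M per RNA library and to between 15.57 M and 22.71 M per footprint library. Fmr1 itself was at 4.59 to 5.03 TPM in KO footprints and 42.7 to 46.3 TPM in WT, and at 3.90 to 5.31 TPM in KO RNA against 16.0 to 19.3 TPM in WT. TPM is a transcript abundance scaled to the library and corrected for the length assigned to each gene. The lowest value in each library was between 0.88 and 1.0 TPM, so values near 1 TPM lie at a floor of the tables. TPM summed to between 1008322 and 1014087 per library, above the total to which TPM is scaled. Whether a constant was added to every value was not tested. A count test (edgeR) was run across all genes. A gene is called here where its Benjamini-Hochberg adjusted p was under 0.05, and errors of log2 fold changes are standard errors.

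Notch signalling passes between touching cells. A Delta or Jagged ligand on one cell binds a Notch receptor on its neighbour, the receptor is cut by ADAM proteases and then by gamma-secretase, and the freed intracellular domain enters the nucleus and joins RBPJ and Mastermind to switch on genes of the HES and HEY families. HES and HEY proteins are basic helix-loop-helix repressors that hold back proneural genes. In the hippocampus the pathway is known for keeping neural stem cells undifferentiated, and astrocytes carry Notch receptors and express Hes5. In whole slices, fewer cells of a type and less RNA per cell cannot be told apart.

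RBPJ binds a core written TGGGAA, often preceded by G. This core was searched on both strands in RefSeq promoters of GRCm38, each 250 bases before to 50 bases after an annotated start. It is shown here for Hes5 and for Rbpj, the members whose promoters hold it. Of 32851 promoters, 25.6% held TGGGAA and 6.38% held GTGGGAA, of which TGGGAA is a part. Promoters were matched for 7 of the members (Hes1 and Hey1 were not matched), and Notch1, Notch2, Notch3, Dll1 and Jag1 had no match in this window. The Hes5 promoter held the core at 226 and at 82 bases before the start, and both copies extended to GTGGGAA. Each window below is 30 bases of the plus strand of GRCm38, read 5′ to 3′, with the core in capitals, written TTCCCA where it lies on the minus strand.
Hes5, chr4:154960685-154960714: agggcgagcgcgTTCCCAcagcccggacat
Hes5, chr4:154960829-154960858: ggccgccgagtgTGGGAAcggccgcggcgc
Rbpj, chr5:53590185-53590214: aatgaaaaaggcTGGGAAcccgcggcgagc
Rbpj, chr5:53590269-53590298: gacgctcgcattTTCCCAggacccctcctc
Neither Rbpj copy extended to GTGGGAA. All 4 windows lie inside the outermost annotated bounds of their genes, because RefSeq lists more than 1 start for each. A match of letters is a description and does not show binding.

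Hes5 (GRCm38 chromosome 4, 154960626 to 154962372) encodes a repressor that is a direct target of Notch. Its footprints were at 43.4, 46.4 and 38.0 TPM in KO and at 28.1, 26.5, 33.8 and 33.0 TPM in WT. Every KO library lay above every WT library. The means were 42.6 ± 4.29 TPM (SD, n = 3) and 30.3 ± 3.59 TPM (SD, n = 4), a ratio of 1.40 and a log2 fold change of 0.47 ± 0.08.

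Hes5 RNA was at 59.3, 50.3 and 53.9 TPM in KO and at 59.1, 46.3, 57.1 and 56.0 TPM in WT. The groups overlapped throughout, and the lowest and the second highest value were both WT. Mean RNA was 54.5 ± 4.55 TPM in KO and 54.6 ± 5.70 TPM in WT, with a log2 fold change of -0.01 ± 0.09. These values rest on 181 to 359 estimated footprint counts and 83 to 191 RNA counts per library.

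Dividing footprint by RNA TPM within each replicate gave Hes5 ratios of 0.732, 0.923 and 0.704 in KO and 0.475, 0.573, 0.591 and 0.590 in WT. The ratio was higher in every KO replicate than in any WT replicate, with KO replicate 2 at the top and WT replicate 1 at the bottom. The log2 fold change of the ratio was 0.47 ± 0.13. The footprint and RNA libraries of a replicate share a lysate.

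**Figure D1:**
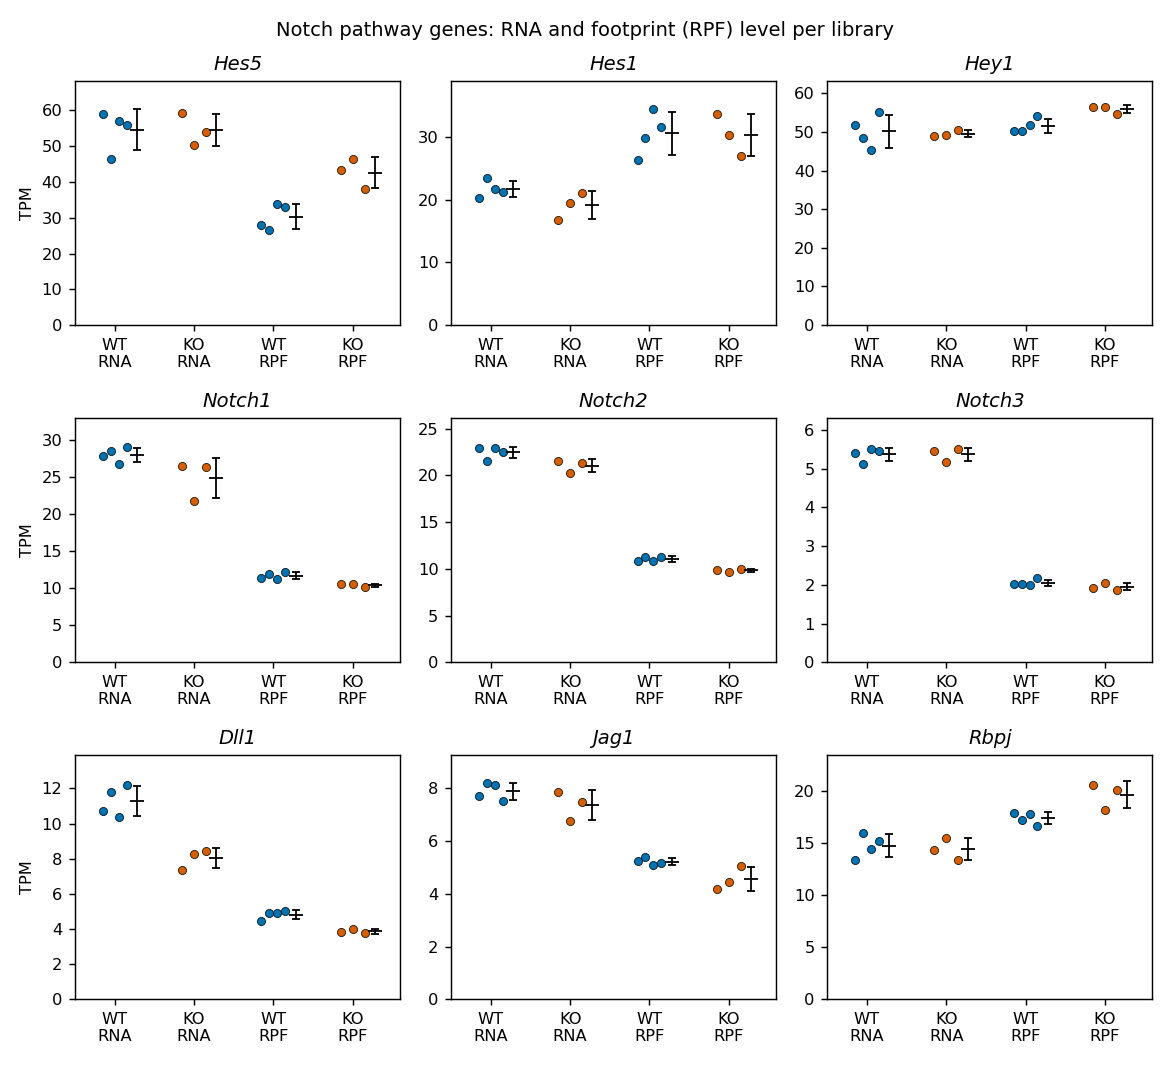
TPM of each of the 9 genes in every library, by genotype (blue WT, orange KO) and assay (RNA or footprints, RPF); the bar beside the points is the mean ± SD (n = 3 KO, 4 WT) and each vertical axis starts at 0. Hes5 footprints lie at 38.0 to 46.4 TPM in KO and 26.5 to 33.8 TPM in WT while its RNA overlaps, and Dll1 is lower in KO in both assays.

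Among the ligands, Dll1 was lower in KO in both assays. Dll1 (chromosome 17, 15367354 to 15376932) encodes Delta-like 1, a transmembrane activator of Notch. Its footprints were at 3.86, 4.03 and 3.75 TPM in KO and at 4.46, 4.93, 4.89 and 5.02 TPM in WT. No KO library reached the lowest WT library. The log2 fold change was -0.33 ± 0.06 (adjusted p = 0.00452).

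Dll1 RNA was at 7.38, 8.29 and 8.44 TPM in KO and at 10.7, 11.8, 10.4 and 12.2 TPM in WT. The KO libraries again all lay below the WT libraries. RNA fell by 0.47 ± 0.09 on the log2 scale (log2 fold change -0.47, adjusted p = 0.0130), the only RNA call among the 8 members other than Hes5. Over all genes, 4.89% were called in RNA, 2.77% as lower and 2.11% as higher. The RNA call was lost with the replicate number as a block (adjusted p = 0.0640), and DESeq2 gave no adjusted p for this gene. The ratio of footprints to RNA had a log2 fold change of 0.14 ± 0.11 (adjusted p = 0.811).

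Jag1 (chromosome 2, 137081451 to 137116520) encodes Jagged 1, a second kind of ligand. Its footprints were at 4.17, 4.45 and 5.06 TPM in KO and at 5.23, 5.40, 5.08 and 5.15 TPM in WT. The groups did not overlap, but KO replicate 3 nearly reached WT replicate 3. The log2 fold change of -0.21 ± 0.07 was just past the threshold (adjusted p = 0.0485). The call was lost in 14 of 16 alternatives, including without any 1 library other than KO replicate 3, and over all 16 the adjusted p ran from 0.0105 to 0.251. Jag1 RNA was at 6.75 to 7.86 TPM in KO and 7.50 to 8.18 TPM in WT, which overlapped (-0.10 ± 0.08, adjusted p = 0.591).

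Footprints of the receptors Notch1 and Notch2 were slightly lower in KO. These receptors are large single-pass proteins that are both found in the postnatal brain. Notch1 (chromosome 2, 26457902 to 26503822) had footprints at 10.5, 10.5 and 10.1 TPM in KO and at 11.4, 11.9, 11.2 and 12.2 TPM in WT. Notch2 (chromosome 3, 98013538 to 98150367) was at 9.93, 9.66 and 9.98 TPM in KO and at 10.8, 11.3, 10.8 and 11.3 TPM in WT. In both genes the KO libraries lay closely together and below all WT libraries. The log2 fold changes were -0.18 ± 0.04 (adjusted p = 0.0115) for Notch1 and -0.17 ± 0.04 (adjusted p = 0.00933) for Notch2.

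Receptor RNA did not pass the test. Notch1 RNA was at 26.5, 21.8 and 26.4 TPM in KO and at 27.8, 28.5, 26.8 and 29.0 TPM in WT (-0.17 ± 0.07, adjusted p = 0.149). Notch2 RNA was at 21.6, 20.3 and 21.3 TPM in KO and at 22.9, 21.6, 22.9 and 22.5 TPM in WT (-0.10 ± 0.05, adjusted p = 0.328). The groups stood apart for both transcripts, for Notch2 by less than the rounding of its values. In the ratio of footprints to RNA, the log2 fold changes were -0.02 ± 0.08 (Notch1, adjusted p = 0.975) and -0.08 ± 0.06 (Notch2, adjusted p = 0.690).

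Length here is the length assigned to each gene, read from the ratio of count to TPM, and need not be the whole transcript. By this measure Notch1 and Notch2 are among the longest, at 5.59 and 5.47 times the median of all genes. With each library's trend of counts on length removed, their footprint log2 fold changes were -0.11 (adjusted p = 0.0831) and -0.10 (adjusted p = 0.0900), and neither was called. With the replicate block the adjusted p were 0.0556 and 0.0684.

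Notch3 (chromosome 17, 32120820 to 32166896), the receptor best known from vascular mural cells, lay near the floor of the tables. Its footprints were at 1.88 to 2.06 TPM in KO and 1.99 to 2.17 TPM in WT, and its RNA at 5.18 to 5.50 TPM and 5.13 to 5.51 TPM. Both assays overlapped between the genotypes, with a footprint log2 fold change of -0.07 ± 0.06 (adjusted p = 0.556).

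Rbpj (chromosome 5, 53555779 to 53657445), which encodes the DNA-binding partner of the cleaved receptor, had higher footprints in KO. They were at 20.6, 18.2 and 20.1 TPM in KO and at 17.9, 17.2, 17.8 and 16.6 TPM in WT. The groups did not overlap, though KO replicate 2 and WT replicate 1 were close. The log2 fold change was 0.17 ± 0.05 (adjusted p = 0.0310). The call was lost in 8 of 17 alternatives, among them DESeq2 (adjusted p = 0.0899) and leaving out KO replicate 1 (0.103), KO replicate 3 (0.108), WT replicate 2 (0.0611) or WT replicate 4 (0.0879). Rbpj RNA was at 13.4 to 15.5 TPM in KO and 13.4 to 16.0 TPM in WT (-0.05 ± 0.09, adjusted p = 0.861). The ratio of footprints to RNA had a log2 fold change of 0.21 ± 0.10 (adjusted p = 0.496).

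The other target genes did not pass the test in any comparison. Hey1 (chromosome 3, 8663359 to 8667038) encodes a HES-related repressor. Its footprints were at 56.4, 56.4 and 54.6 TPM in KO and at 50.3, 50.1, 51.9 and 54.0 TPM in WT. All KO libraries were above all WT libraries by a small margin (0.10 ± 0.04, adjusted p = 0.0842). Hey1 RNA was at 49.0 to 50.6 TPM in KO, inside the WT range of 45.4 to 55.2 TPM (-0.01 ± 0.07, adjusted p = 0.981).

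Hes1 (chromosome 16, 30065357 to 30067796), a repressor related to Hes5 and known for oscillating in progenitors, had overlapping footprints. They were at 33.6, 30.4 and 27.0 TPM in KO and at 26.4, 29.8, 34.5 and 31.6 TPM in WT (-0.03 ± 0.08, adjusted p = 0.896). Its RNA was at 16.7, 19.5 and 21.1 TPM in KO and at 20.3, 23.4, 21.7 and 21.3 TPM in WT. The KO libraries reached lower but overlapped the WT range (-0.16 ± 0.10, adjusted p = 0.489).

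**Figure D2:**
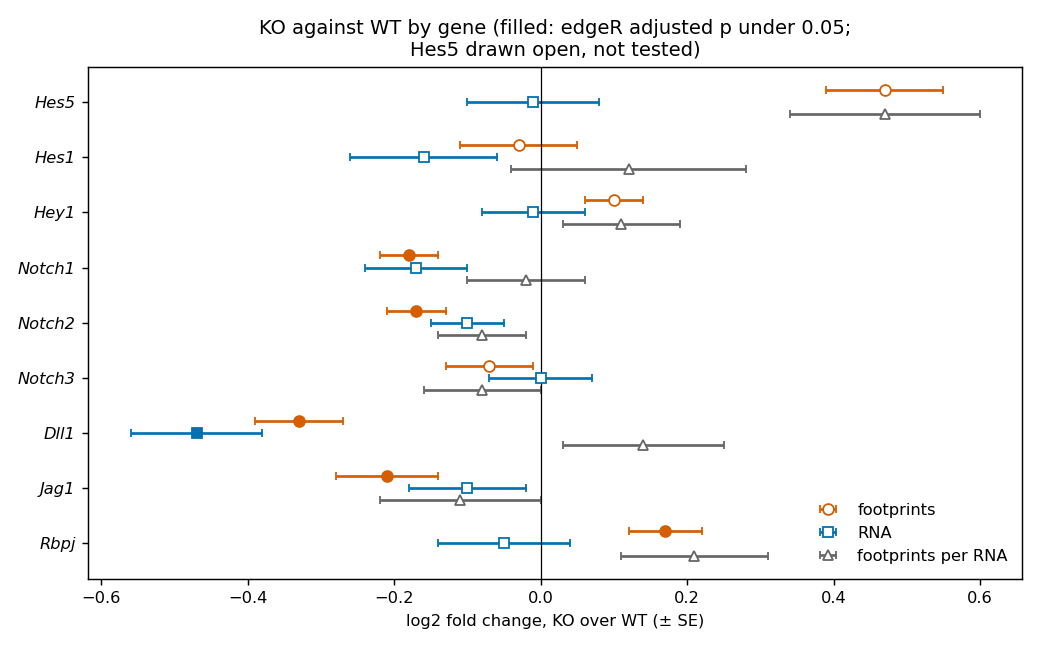
Log2 fold change of KO over WT (± SE) for each gene in footprints (orange circles), RNA (blue squares) and footprints per RNA (grey triangles); filled symbols passed an edgeR adjusted p of 0.05, and Hes5 is drawn open because it was not tested. Hes5 footprints and their ratio to RNA both lie at 0.47, and Dll1 is the only gene with a filled RNA symbol.

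Counted together, 1 of the 8 members other than Hes5 rose in KO footprints, 4 fell and 3 did not pass. Over all 14438 genes tested, 18.5% were called in footprints, 8.15% as higher and 10.4% as lower. Groups that did not overlap were found for 6 of these 8 members in footprints, 2 with KO above and 4 with KO below WT. For all genes that share was 30.7%, with 15.1% above and 15.6% below. The median footprint log2 fold change was -0.12 for these 8 members and 0.00 for all genes.

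In RNA, 3 of the 8 had groups that did not overlap, all with KO below WT. Over all genes the share was 19.4%, with KO above WT in 9.19% and below in 10.3%. None of the 8 was called in the ratio of footprints to RNA, where 0.0346% of all genes were called (0.0139% as higher and 0.0208% as lower). Hes5 was the only one of the 9 whose ratios did not overlap between genotypes, which goes with how it was chosen. Over all genes 13.6% did not overlap, 6.59% with KO above WT and 7.01% below.

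The genes also differed in how many footprints they carried per RNA. For Hes5, whose WT values entered the choice, this level is part of the description. In WT the mean ratio of footprint to RNA TPM was highest for Hes1, at 1.41 ± 0.153 (SD, n = 4), followed by Rbpj at 1.18 ± 0.121 and Hey1 at 1.03 ± 0.0800. The ratio was lower for Jag1 at 0.663 ± 0.0261 and for Hes5 at 0.557 ± 0.0554. Below these were Notch2 at 0.491 ± 0.0240, Dll1 at 0.429 ± 0.0290, Notch1 at 0.417 ± 0.00495 and Notch3 at 0.381 ± 0.0169. Footprints of Notch3, Dll1 and Jag1 were at a few TPM, where the floor, or a constant added to every value, may shift the ratio and the order. This was not tested.

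Neighbours in this order overlapped in their WT replicates, except that Hey1 lay above Jag1, Jag1 above Hes5 and Notch1 above Notch3. The median over 14435 genes was 0.779. Hes1 lay at the 82.2 percentile of all genes, Hes5 at the 30.6 percentile and Notch3 at the 15.1 percentile. The receptors were at the 15.1 to 24.6 percentiles. Hes1 and Hes5, related genes that are both short by their assigned length, lay apart in every WT replicate. In KO the mean Hes5 ratio was 0.786 ± 0.119 (SD, n = 3).

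**Figure D3:**
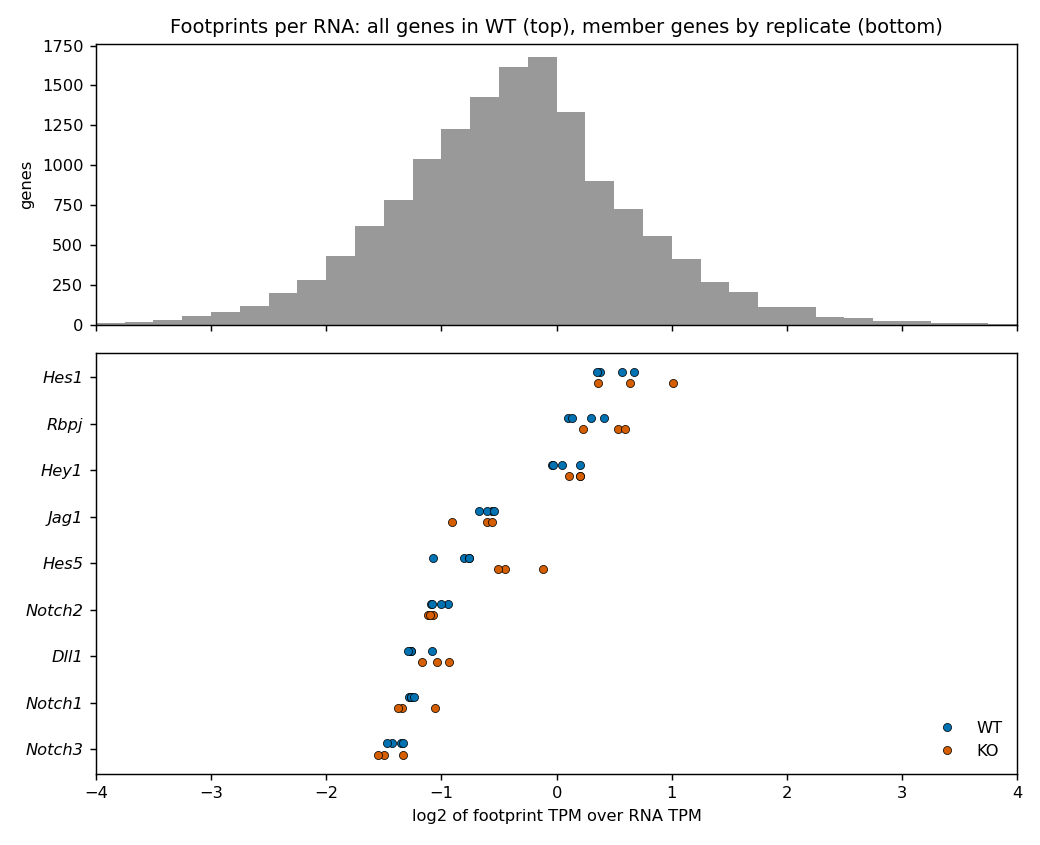
Top, number of genes by mean log2 ratio of footprint to RNA TPM in WT; bottom, the same ratio for each gene and replicate (blue WT, orange KO), ordered by the WT mean, on the same horizontal axis. The WT means of Hes1, Rbpj and Hey1 lie above 0, those of the receptors and Dll1 near or below -1, and only Hes5 has separate KO and WT points.

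Another 67 genes of the pathway were read from lists ordered by role. Of these, 10 rose and 7 fell in footprints, 1 rose and 2 fell in RNA (66 tested), and 0 passed in the ratio. Over all genes, 8.15% rose and 10.4% fell in footprints, and 2.11% rose and 2.77% fell in RNA, so the counts are near those shares except for the 10 that rose. The median footprint log2 fold change was 0.01.

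Ligands that passed the test were all lower. Of 9 ligand genes, 5 fell in footprints and 0 rose (median -0.24), namely Dll1, Jag1, Dlk1, Dner and Mfge8. Over all genes, 10.4% fell and 8.15% rose in footprints. Dlk1, a ligand-like protein without the receptor-activating domain, fell from 7.95 ± 1.27 to 5.72 ± 0.893 TPM (-0.48 ± 0.13, adjusted p = 0.0226) and was also lower in RNA (-0.76 ± 0.19, adjusted p = 0.0392). Without KO replicate 1 the Dlk1 footprint call was lost (adjusted p = 0.0954). Dner, an EGF-repeat protein of neuronal membranes, fell from 307 ± 12.7 to 259 ± 12.6 TPM (-0.26 ± 0.05, adjusted p = 0.00500). Mfge8, a secreted protein with EGF repeats that is listed here although it binds phosphatidylserine and integrins, fell from 313 ± 7.72 to 251 ± 14.1 TPM (-0.33 ± 0.05, adjusted p = 0.00127). Dlk2, Dll3, Dll4 and Jag2 did not pass.

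Among receptors and the genes that process them, some fell. Of 4 receptors, 2 fell (Notch1 and Notch2), and Notch4 was near the floor at 1.32 TPM in WT. Of 9 cleavage genes, 2 fell and 0 rose (median -0.16), against 10.4% lower over all genes, and 0 were called without KO replicate 1 or WT replicate 2. Those that fell were the gamma-secretase subunits Psen2 (-0.17 ± 0.05, adjusted p = 0.0409) and Ncstn (-0.14 ± 0.04, adjusted p = 0.0196). With the replicate block neither was called. Furin, the protease that cuts the receptor precursor, fell in RNA (-0.28 ± 0.07, adjusted p = 0.0420). Among 5 glycosylation enzymes, Poglut1, which adds glucose to EGF repeats, fell from 30.6 ± 1.45 to 24.9 ± 1.08 TPM (-0.30 ± 0.05, adjusted p = 0.00389) with RNA at 46.9 to 49.4 TPM in KO and 44.7 to 53.5 TPM in WT.

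Regulators of ligand and receptor turnover included genes that rose. Of 4 ligand ubiquitination genes, Mib1, the ligase needed for ligand endocytosis, rose (0.21 ± 0.04, adjusted p = 0.00692). Mib1 RNA lay above WT in every KO library but did not pass (0.15 ± 0.05, adjusted p = 0.115). Of 14 genes of receptor turnover and inhibition, 4 rose and 1 fell (median 0.08), against 8.15% and 10.4% over all genes. Numb, an endocytic inhibitor of Notch, was at 15.3, 14.2 and 12.6 TPM in KO footprints and at 11.2, 11.1, 12.5 and 11.5 TPM in WT (0.27 ± 0.06, adjusted p = 0.0119), and its RNA groups overlapped. KO replicate 3 was close to WT replicate 3. Its relative Numbl rose from 56.9 ± 1.90 to 67.8 ± 2.77 TPM (0.24 ± 0.04, adjusted p = 0.00173). Nedd4, a ubiquitin ligase with many substrates, rose by 0.22 ± 0.04 in footprints (adjusted p = 0.00300), and its RNA rose by 0.29 ± 0.06 (adjusted p = 0.0164). Fbxw7, which marks the cleaved receptor for degradation, rose by less (0.13 ± 0.03, adjusted p = 0.0180). Fbxw7 RNA lay above WT in every KO library but did not pass (0.19 ± 0.06, adjusted p = 0.0691). Dtx1, named after its value was seen, fell (-0.12 ± 0.04, adjusted p = 0.0399), and that call was lost in 13 of 17 alternatives.

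The nuclear genes that passed in footprints were all higher. Of 9 activation genes, Rbpj rose and the Mastermind genes Maml1, Maml2 and Maml3 did not pass (median 0.01). Of 15 repression genes, 4 rose (median 0.07), against 8.15% higher over all genes. These were the deacetylases Hdac1 (0.17 ± 0.05, adjusted p = 0.0254) and Hdac2 (0.12 ± 0.04, adjusted p = 0.0487), Ctbp1 (0.11 ± 0.03, adjusted p = 0.0376) and the short Groucho-related gene Aes (0.17 ± 0.05, adjusted p = 0.0342). In RNA none of the 4 passed, with log2 fold changes of -0.02, 0.17, 0.03 and -0.11 in that order. With the replicate block none of the 4 was called. All 4 have functions outside this pathway.

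The HES and HEY list held 7 measured genes (Hes2 and Hes3 had no row). Of the 6 other than Hes5, which was not tested, Hes6 passed in footprints, where 8.15% of all genes rose. Hes6, which opposes Hes1 and favours neuronal differentiation, had footprints at 14.4, 14.2 and 14.6 TPM in KO and at 11.1, 11.5, 11.5 and 11.8 TPM in WT. The groups were tight and well apart (0.32 ± 0.05, adjusted p = 0.00912), although DESeq2 gave an adjusted p of 0.0524. Hes6 RNA spread widely, from 21.1 to 35.9 TPM in KO and from 26.8 to 36.5 TPM in WT (-0.08 ± 0.15, adjusted p = 0.835). Hes7, Hey2 and Heyl were at 1.48 to 3.23 TPM in WT footprints and did not pass.

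**Figure D4:**
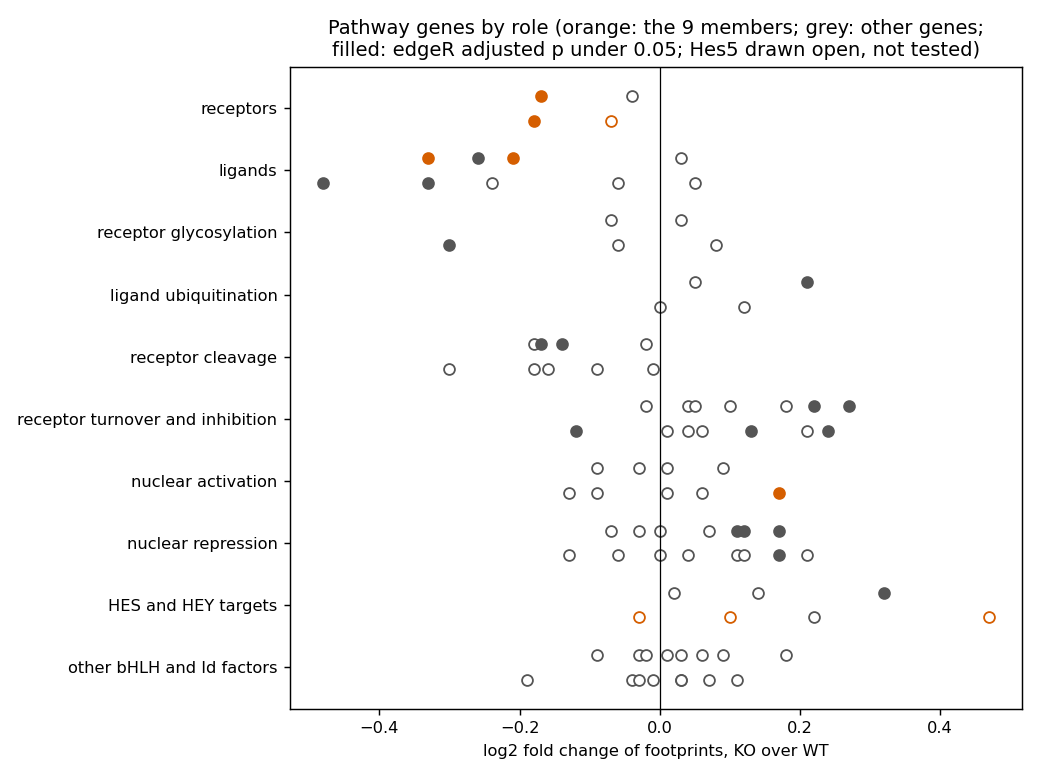
Footprint log2 fold change of KO over WT for each gene of the pathway lists, by role; orange marks the 9 members, grey the other genes, and filled symbols passed an edgeR adjusted p of 0.05 (Hes5 is drawn open, not tested). Filled ligand, receptor and cleavage symbols lie below 0 and filled nuclear symbols lie above 0, while receptor turnover and inhibition has both. This split was drawn after the values were seen and was not tested.

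When the lists were combined after these values were seen, 9 of 22 receptor, ligand and cleavage genes fell and 0 rose, while 6 of 30 nuclear genes other than Hes5 rose and 0 fell. Over all genes 10.4% fell and 8.15% rose. The counts were 6 and 2 with DESeq2, 6 and 5 with the length trend removed, and 4 and 1 with the replicate block. Leaving out 1 library gave 5 to 9 and 2 to 4. The lowest of these were 5 lower without KO replicate 1, and 2 higher without KO replicate 1 or 3 or WT replicate 2 or 4. Without KO replicate 1, 1 nuclear gene was also called lower. The difference between the combined lists was not tested. The other lists by role were in neither group, so the split depends on which lists were joined. In footprints, receptor glycosylation had 1 lower, ligand ubiquitination 1 higher, and receptor turnover and inhibition 4 higher and 1 lower.

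Several of these smaller changes depended on single libraries. The footprint call of Dtx1 was lost without any 1 of the 7 libraries, that of Psen2 without any but KO replicate 2 or WT replicate 3, that of Ctbp1 without any but WT replicate 3, and that of Hdac2 without any but KO replicate 2. Ncstn was lost without KO replicate 1 or WT replicate 2, and Hdac1 without KO replicate 1 or WT replicate 1 or 2. Aes was lost without KO replicate 2 or 3 or WT replicate 3 or 4, and Fbxw7 without KO replicate 3 or WT replicate 4. In RNA, Nedd4 was lost without KO replicate 1, Furin without KO replicate 1 or 2 or WT replicate 1, 2 or 4, and Dlk1 without any but WT replicate 2 or 3. The calls of Dner, Mfge8, Poglut1, Numbl and Nedd4 in footprints held in all 17 alternatives. With the replicate block, Mib1 (adjusted p = 0.0532), Numb (0.0741) and Fbxw7 (0.0934) were not called.

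**Figure D5:**
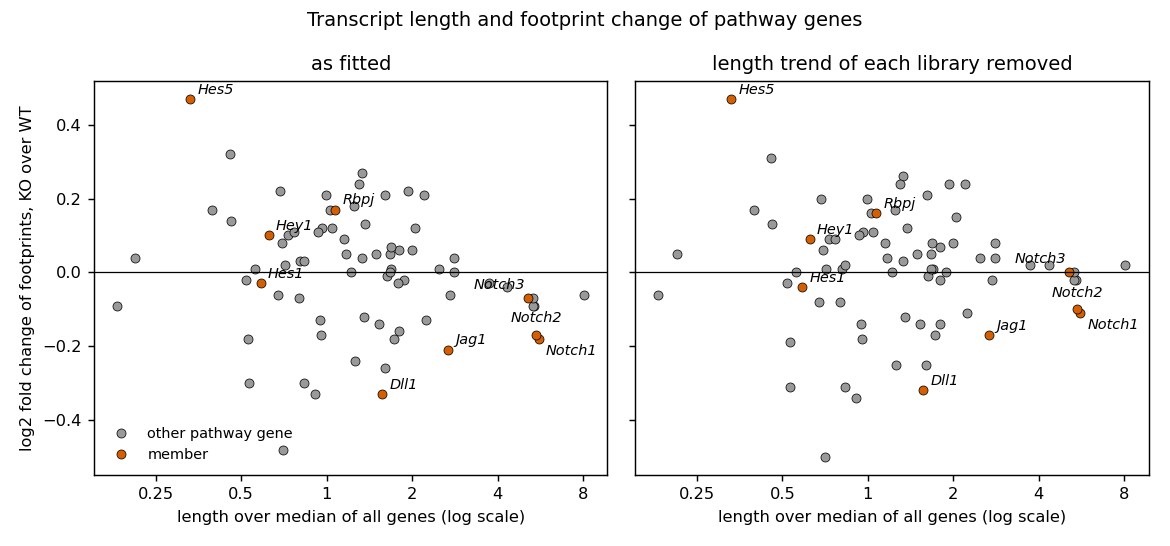
Footprint log2 fold change of KO over WT against the length assigned to each gene, relative to the median gene (log scale), for the 9 members (orange, named) and the other pathway genes (grey), as fitted (left) and after removing each library's length trend (right). Hes5, with a length of 0.330 times the median, stays at 0.47, while Notch1 moves from -0.18 to -0.11 and Notch2 from -0.17 to -0.10.

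Proneural and other basic helix-loop-helix factors, which HES proteins repress or pair with, were read as a list of 16 genes, Id inhibitors included. None passed in footprints (median 0.02), and 1 fell in RNA, where 2.77% of all genes fell. Olig2, a factor of the oligodendrocyte lineage, had RNA at 36.5, 37.2 and 39.0 TPM in KO and at 55.3, 52.6, 49.2 and 59.5 TPM in WT. The groups stood well apart (-0.52 ± 0.08, adjusted p = 0.00394), and the call held in all 17 alternatives. Olig2 footprints were at 33.8 to 40.4 TPM in KO and 33.8 to 41.6 TPM in WT. The Olig2 ratio of footprints to RNA had a log2 fold change of 0.49 ± 0.11 and did not pass the test (adjusted p = 0.0802). It was called in 3 of 18 alternatives, namely DESeq2 (adjusted p = 0.0143), a minimum mean of 5 TPM (0.0300) and leaving out KO replicate 3 (0.0341). Its footprints, unlike those of Hes5, overlapped between genotypes.

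Markers of cell types that carry the pathway were read beside these values. Of 12 astrocyte markers, 2 rose in footprints (Aldoc and Aldh1l1) and 2 fell (Slc1a3 and Gja1), and their summed footprint level was 5730 to 6000 TPM in KO and 5890 to 6270 TPM in WT. Of 12 neural progenitor markers, Fabp7 rose (0.26 ± 0.05, adjusted p = 0.00595) and Hopx fell (-0.30 ± 0.04, adjusted p = 8.53e-04), with sums of 695 to 718 TPM and 678 to 722 TPM. Both sums overlapped between genotypes. Over all genes, 8.15% were called higher and 10.4% lower in footprints. In RNA, 1 astrocyte marker fell (Atp1b2) and 1 progenitor marker rose, Fabp7 (0.54 ± 0.10, adjusted p = 0.00999). Over all genes, 2.77% fell and 2.11% rose in RNA. The proliferation marker Mki67 was near the floor, with a mean of 1.30 TPM in KO and of 1.25 TPM in WT.

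Of 9 markers of oligodendrocyte precursors, 3 fell in footprints and 2 in RNA, Olig2 among the latter. Their summed RNA was 742 to 796 TPM in KO and 824 to 882 TPM in WT. Their summed footprints overlapped, at 585 to 624 TPM in KO and 622 to 664 TPM in WT. Of 10 microglial markers 9 fell (595 to 651 TPM against 723 to 740 TPM), of 10 fibroblast markers 7 fell (296 to 300 TPM against 369 to 411 TPM), and of 10 mural markers 3 fell (182 to 194 TPM against 195 to 224 TPM). The summed footprints of these 3 lists did not overlap between genotypes. Of 10 endothelial markers 2 fell (42.7 to 54.3 TPM against 44.0 to 61.5 TPM), and 5 of 8 thalamic markers rose (162 to 170 TPM against 127 to 162 TPM). In RNA, 6 microglial markers were lower (834 to 864 TPM against 972 to 1010 TPM), as were 2 fibroblast markers (126 to 138 TPM against 155 to 169 TPM). Thalamic RNA was higher for 4 markers (162 to 170 TPM against 111 to 146 TPM). These RNA sums did not overlap between genotypes, while those of the mural and endothelial markers did. For comparison, 10.4% of all genes were called lower and 8.15% higher in footprints, and 2.77% lower and 2.11% higher in RNA. The tables list no marker at 0, because of their floor. The part of these cell types in the values of Notch1, Notch2, Dll1, Jag1 and Hes5 was not tested.

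The genes whose footprints followed Hes5 most closely were found by the Pearson r of log2 TPM over the 7 footprint libraries, among 10594 genes with a mean of at least 5 TPM. These were Tada3 and Wash (r = 0.99 each), and Glud1, Slc25a1 and Car7 (0.98 each). All 5 had KO libraries above all WT libraries, as Hes5 did, and every gene is read in the same 7 libraries, 3 KO and 4 WT. Glud1, for example, was at 235, 234 and 222 TPM in KO and at 196, 188, 210 and 213 TPM in WT. Among the members measured at that level, Hey1 was the most alike (r = 0.96, rank 55), then Rbpj (0.61, rank 2934) and Hes1 (0.33, rank 4649). Notch1 (-0.76) and Notch2 (-0.89) ran the other way. Hes5 was chosen for its gap between genotypes, so r in footprints partly repeats each gene's own difference between KO and WT. In RNA, among 11435 genes, the most alike were Rrp12 and Syn2 (0.98 each), Ppp4c (0.97), and Sugp2 and Trappc10 (0.96 each). Of the members, Notch3 (0.83, rank 197) was the most alike in RNA. These r rest on 7 libraries and the named genes are the highest of many. Some varied little, such as Trappc10 at 93.2 to 97.8 TPM. What they share with Hes5 RNA was not tested.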

How the data were processed

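Per the submitters' processing notes, the tools used were cutadapt 1.7.1, Trimmomatic 0.32, Bowtie2 2.1.0, TopHat2 2.0.9, SAMtools 0.0.19, bedtools and RSEM 1.2.11, with genome build mm10. The authors deposited estimated counts from RSEM in 1 table and TPM in another. Strand handling is not given in the sources used here. Replicates are pools of mice. Each p-value sets the genotype difference against the spread between libraries of these pools, which is estimated in part across genes.

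For each assay by itself, edgeR 4.0.16 (R 4.3.3) was run on counts rounded to whole numbers (filterByExpr with minimum count 10, TMM, robust quasi-likelihood F-test, Benjamini-Hochberg over all genes tested). A standard error is the size of the fold change, on the log2 scale, divided by the root of its F. The ratio of footprints to RNA was tested by an assay-by-genotype interaction in 1 fit of 14 libraries, with no term for the shared lysate. Adjusted p-values come from edgeR where no other tool is given. The code was tested on simulated data. Alternatives were DESeq2 1.42.0, limma 3.58.1 on log2(TPM + 1) and log2(TPM + 0.1), other scalings, no filter, a minimum mean of 5 TPM, a replicate block, the replicate set (replicates 1 and 2 against 3 and 4) as a covariate, a length trend removed, and each replicate left out.

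Within groups, the direction of replicates 1 and 2 against 3 and 4 held 2.73% of the variance in RNA and 4.12% in footprints, against 20% if all directions were equal. The labels mention no adjustment for replicate sets, and p-values take no account of one and may be too small. The members, lists, tests and the rule for naming genes were chosen with earlier results of these data known. A pair of listed genes is not reported here and was left out of the list counts. The rule names the 9 members, up to 4 called genes per pathway list by smallest p, markers whose calls are described, and the 5 genes per assay most like Hes5. Gene locations, promoters and matched symbols are from RefSeq (GRCm38.p6).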

Additional observations from a re-analysis of the deposited data

Results flagged for a closer look

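In each group of 4 WT replicates, the highest and lowest values of the 9 genes were examined for a sample far from the rest. Of 27 such groups, 3 had one, and chance gives about 1 in 20. The Hes5 log2 ratio of footprints to RNA in WT replicate 1 was -1.07, and the next value was -0.803. The Notch3 footprint level in WT replicate 4 was 2.17 TPM, and the next was 2.02 TPM, both near the floor. The Dll1 log2 ratio in WT replicate 3 was -1.08, above the next value of -1.26.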

How the results depend on the processing

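Hes5 was chosen on these same values, so its direction is a description and no support. Its log2 fold change ran from 0.40 to 0.53 in footprints and from 0.37 to 0.53 in the ratio to RNA over the alternatives. Dll1 footprints stayed called wherever they were tested. Of the 8 members other than Hes5, 0 were called higher in footprints under DESeq2, limma on log2(TPM + 0.1), the replicate block and the replicate set. The count lower was 2 with a minimum mean of 5 TPM, where Dll1, Jag1 and Notch3 were not tested, 1 with the replicate block and 1 with the length trend removed. Leaving out 1 library gave 0 to 1 higher and 3 to 4 lower. Their RNA count lower was 0 with the replicate block.

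Deviations of same-numbered KO and WT samples correlated at -0.04, -0.03 and -0.34 in RNA and -0.11, 0.10 and -0.50 in footprints. These values show no pairing of KO and WT by replicate number. They cannot exclude one, because an earlier adjustment for replicate sets, if made, could have removed it. With the replicate block, 429 genes were higher and 875 lower in footprints, 73 and 131 in RNA, and 0 and 0 in the ratio. In RNA the other counts were 93 and 148 (limma, pseudocount 1), 74 and 120 (pseudocount 0.1) and 151 and 211 (replicate set). In the ratio they were 51 and 38 (DESeq2), 20 and 19 (limma, pseudocount 1), 22 and 19 (pseudocount 0.1), 35 and 16 (minimum mean of 5 TPM), 13 and 9 (length trend removed), and 0 higher when paired by lysate. Leaving out 1 library gave 719 to 1086 higher and 1051 to 1303 lower in footprints, 94 to 352 and 122 to 520 in RNA, and 1 to 57 and 1 to 11 in the ratio, 57 and 11 without KO replicate 3. The WT percentile of Hey1 was 64.5 with a minimum mean of 5 TPM. The cause of these shifts was not tested.

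Values near 0 changed sign without being called. Notch3 RNA was 0.00 to 0.01 under 9 alternatives and 0.04 with the length trend removed, Hey1 RNA 0.00 (library totals) and 0.04 (replicate block), and Notch1 in the ratio 0.01 and 0.00 (limma) and 0.02 (length trend removed). With 1 library left out, ranges were -0.02 to 0.03 (Notch3 RNA), -0.05 to 0.05 (Hey1 RNA), -0.10 to 0.02 (Rbpj RNA), -0.30 to 0.08 (Hes6 RNA), -0.11 to 0.04 (Notch1 ratio), -0.03 to 0.29 (Hes1 ratio), -0.10 to 0.04 (Hes1 footprints) and -0.07 to 0.04 (Olig2 footprints). Notch3, Notch4 and Hes7 lie near the floor, and among the 9 members footprint counts were lowest for Dll1, at 126 to 228 per library, and RNA counts reached lowest for Hes1, at 63 to 133.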
